A study of Danio rerio with 184 samples.

Results

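Wild-type hair cells of the zebrafish lateral line, sorted singly at 6 days post fertilization, are described here across all rows of the UMI table. A UMI (unique molecular identifier) is a random tag that lets each captured transcript be counted once, and a row is 1 entry of the table, nearly always 1 gene. The members are the cells with the genotype label Tg[myo6b:actb1-EGFP]_wild-type and at least 1000 UMIs outside the spike-in rows, on both plates. Of 184 cells in the series, 92 carried that label and 90 were kept, 46 on plate 2 and 44 on plate 4. The other 92 cells carried the label Tg[myo6b:actb1-EGFP]_Emx2-mutant. Cells of both labels came from 6-day larvae with the same transgene, in which the promoter of the hair cell gene myo6b drives a beta-actin fusion to a green fluorescent protein, and both were sorted by that fluorescence from dissociated trunks. The labels name no strain, animal or pool, and each genotype therefore counted as 1 sample. No test over animals was possible, and every interval given is a 95% interval for counting error only.

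Hair cells turn the deflection of an apical bundle into a calcium-dependent release of transmitter at ribbon synapses. In the lateral line they sit in small skin organs called neuromasts, surrounded by support cells, and keep a true cilium beside the bundle throughout life. Calcium enters through the transduction channel and through voltage-gated channels at the synapse, and buffers, pumps and mitochondria remove it.

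The 90 cells held 537512 UMIs. Plate 2 was deeper, with a lowest, median and highest depth of 1576, 6261.5 and 33325 UMIs per cell, against 1952, 3495 and 10684 UMIs on plate 4. Cells had a median of 1475 genes on plate 2 and 966 on plate 4; after each cell was thinned at random to 2000 UMIs, which left out 1 cell per plate, it was 726 and 676. The 2 cells left out, both on plate 4, had 866 and 712 UMIs and gave pvalb8 23.1% and 20.4% of them; the shallowest cells kept had 1576 and 1952 UMIs. No barcode was shared between libraries and no pair of columns was identical. The share of spike-in transcripts among all UMIs had a median over cells of 4.47% on plate 2 and 2.45% on plate 4, and it passed 20% in 2 cells, both on plate 2. The plate was read from the first digit of the well code. Wild-type cells filled columns 7 to 12 of each plate and mutant-labelled cells columns 1 to 6, so genotype and plate side cannot be told apart.

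A single cell of plate 2 stood apart, with 33325 UMIs and 3817 genes, where the next deepest cell had 16781 UMIs. It held 6.2% of all UMIs. Its pvalb8 share was 16.3%, against a median of 22.9% in the other cells, and its ribosomal protein share was 7.24%, against a median of 3.53%. Both lay within the range of the other cells. Their lowest pvalb8 share was 9.70%, and 7 of them had a higher ribosomal protein share, up to 10.5%. The epidermis list reached 0.444% of its UMIs, above the highest of the other cells (0.399%), and it held 42 of the 79 UMIs of krt91 and 13 of the 19 of krt92, both keratins. It also held 17 of 58 UMIs of krt4, 15 of 27 of cyt1 and 5 of 13 of cyt1l. Of krt5, the row with most UMIs of the list, it held 50 of 630 (7.94%), and of krt8 6 of 150 (4%), nearer to its share of all UMIs. The pooled pvalb8 and ribosomal protein shares, the counts of varying rows and of rows 2-fold apart, and some plate ratios are also given without it. The named varying rows, their pairs and the other plate ratios are given only with it.

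The cells carried the markers of their label. Pvalb8, a parvalbumin that buffers calcium, and s100t and s100s, members of the S100 family of calcium-binding proteins, had a UMI in 90 of 90 cells. Per cell, s100s had 6, 18.5 and 87 UMIs on plate 2 (lowest, median, highest) and 3, 9.5 and 55 UMIs on plate 4. Gfi1aa, a zinc-finger transcription factor of hair cells, had 241 UMIs and was seen in 71 cells, with at most 14 UMIs in a cell. The 71 cells with a gfi1aa UMI had a median depth of 4935 UMIs and the 19 without one 4018 UMIs. Of the further markers, OTOF (ENSDARG00000020581), an otoferlin, the calcium sensor of hair cell exocytosis, was seen in 90 cells, MYO6 (ENSDARG00000042141), a myosin motor of the hair bundle, in 67, and the transcription factors ATOH1 and POU4F3 in 29 and 24. The reporter had 441 UMIs in 77 cells. Its transgene also carries actb1 sequence, so part of the 557 UMIs counted for actb1 could come from it; this was not tested.

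Most matched markers of other cell types had few UMIs, and single genes of several lists were seen widely. Of 10 epidermal markers, 8 had a UMI and TP63 and agr1 had none; a count of 0 in 537512 UMIs allows up to 5.58 CPM (UMIs per 1000000 UMIs). The epidermal markers summed to 834 UMIs, of which krt5, seen in 89 cells, gave 630. Of 11 muscle markers 8 matched and summed to 912 UMIs, of which atp2a1, a calcium pump of the endoplasmic reticulum, gave 699. Of 10 support cell markers 6 matched, and sox2 and sox3 were among those that did not. The 6 reached 243 UMIs, or 0.0452% of the total, with a range of 0 to 0.266% of a cell's UMIs. A longer support cell list of 13 rows, which also holds genes of other epithelia, summed to 903 UMIs (0.168%) and reached 1.17% in a cell. Epcam, an epithelial adhesion protein, gave 451 of these, in 85 cells, and cldnb, a tight junction claudin, 137, in 43 cells. Of 8 neuron and glia markers 4 matched, with 15 UMIs in sum. Of 6 leukocyte markers 1 matched, with 1 UMI, and of 4 pigment and endothelium markers 1 matched, also with 1 UMI. An unmatched marker could not be counted, so these sums do not show that a cell type was absent. None of the 5 erythroid markers matched a row of the table. All sorted cells were reporter-positive, so no cell type without hair cell genes was at hand to measure how many UMIs come from free RNA.

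UMIs were concentrated in few rows. Of the 10435 rows with a UMI, 57 held 50% of all UMIs, the 25 most abundant held 42.7% and the 100 most abundant 55.5%. At the other end, 6014 rows (57.6%) had fewer than 10 UMIs over all 90 cells and 1954 had 1. The plates differed little in this, with 58 rows for 50% of UMIs on plate 2 and 53 on plate 4, and 22 of the 25 most abundant rows (88% of each list) were the same on both. Because the method tags the 3′ end of each transcript, a long transcript does not yield more UMIs than a short one, and levels of different genes are compared here as shares of UMIs with no length term.

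**Figure D1:**
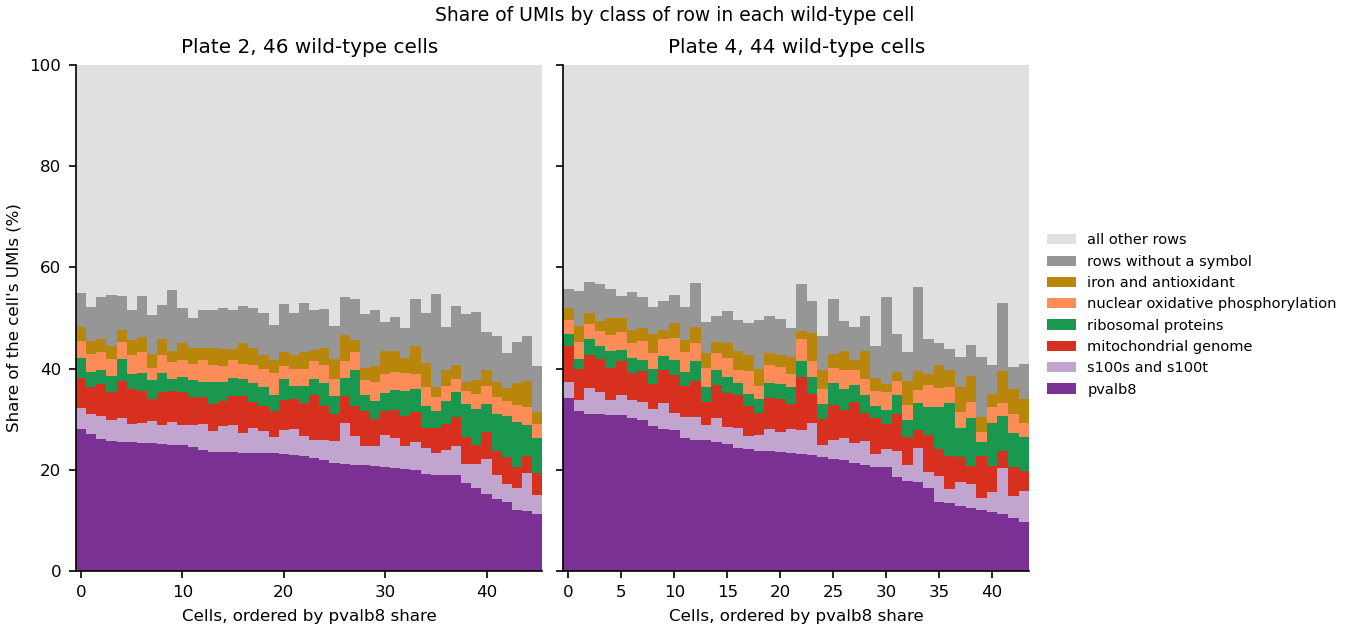
Share of UMIs (%) by class of row, stacked for each of the 46 wild-type cells of plate 2 and the 44 of plate 4, ordered by pvalb8 share. Pvalb8 runs between 11.3% and 28.1% of a cell's UMIs on plate 2 and between 9.70% and 34.2% on plate 4, and the ribosomal protein band is widest at the low end of both.

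Calcium-binding and calcium-transport proteins made up 26.8% of all UMIs. Pvalb8 alone had 112495 UMIs, 20.9% of the total (20.8 to 21). Its share per cell had a lowest, median and highest value of 11.3%, 22.6% and 28.1% on plate 2 and of 9.70%, 23.2% and 34.2% on plate 4. Of the 44 cells of plate 4, 32 lay within the range of plate 2, 10 above it and 2 below it. S100t followed with 4.29% (4.23 to 4.34), with 2.84%, 4.01% and 7.84% per cell on plate 2 and 1.84%, 3.54% and 8.55% on plate 4. No other row reached 3%. The lowest share of this list in a cell was 15.4%, and the highest 38.7%. After pvalb8, s100t and s100s (0.322%), the list was led by ATP2B1, a plasma membrane pump that expels calcium, with 1485 UMIs, and CALM2, a calmodulin, with 1465. The 6 calmodulin rows together made up 0.792% of UMIs. Calmodulin copies are near-identical at the protein level, and how the authors' counting split reads between such copies is not given in the sources used here.

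Energy metabolism came next. Of 13 symbols of the mitochondrial genome list 12 matched, and rows without a symbol could not enter it. The 12 rows summed to 5.41% of UMIs, with 3.37%, 5.44% and 8.87% per cell on plate 2 and 3.29%, 6.07% and 10.6% on plate 4. MT-CO2, a subunit of cytochrome oxidase, gave 2.16% and MT-ATP6, a subunit of ATP synthase, 1.82%, and these 2 rows held most of the list's 29096 UMIs. The nuclear genes of oxidative phosphorylation summed to 3.29% over 73 rows, with a range of 2.0% to 4.61% per cell; COX7C, a subunit of cytochrome oxidase, with 1398 UMIs, and ATP5F1B, a subunit of ATP synthase, with 992, led them. COX5B (ENSDARG00000015978), another subunit of cytochrome oxidase, had 1150 UMIs but matched no symbol of that list. SLC25A5, the carrier that exchanges ADP for ATP across the inner mitochondrial membrane, had 2502 UMIs. Glycolysis and creatine phosphate genes made up 0.554%, and 1731 of their 2979 UMIs came from GAPDHS, a glyceraldehyde-3-phosphate dehydrogenase.

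The 18 rows matched to the iron storage and antioxidant list made up 3.25% of UMIs. Gstp1.2, a glutathione S-transferase, had 5440 UMIs (1.01%), with a per-cell share of 0.486%, 0.827% and 2.90% on plate 2 and of 0.307%, 0.650% and 2.82% on plate 4. The 5 rows of fthl27 to fthl31, which are ferritin heavy-chain-like and so belong to iron storage, made up 2.57% in sum and were seen in 90 cells as a group. Of these only fthl27 and fthl31 are in the list, so the 2.57% is not a part of the 3.25%. Fthl28, fthl29, fthl30 and gpx2, a glutathione peroxidase, matched no symbol of the list, and its share leaves them out. Their per-cell share ran from 0.985% to 5.89%, with a median of 2.34%. Fthl31 and fthl27 led with 3963 and 3893 UMIs; the 5 are close paralogs, and how reads were split among them is uncertain. Gpx1b, a glutathione peroxidase, and PRDX1 (ENSDARG00000025350), a peroxiredoxin, both of which remove peroxides, were seen in 90 cells with 1113 and 835 UMIs.

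The 80 ribosomal protein rows together made up 4.44% of UMIs, less than the 12 mitochondrial rows. Per cell their share was 2.43%, 3.76% and 8.96% on plate 2 and 2.09%, 3.13% and 10.5% on plate 4. Without the deepest cell the pooled share was 4.26%. Translation factors added 0.957%, led by eef1a1l1 with 903 UMIs and pabpc1a with 602, an elongation factor and a protein that binds poly(A) tails.

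Several of the most abundant rows have no symbol in the table of names used here and are given by their identifier alone. ENSDARG00000080337 was the third most abundant row, with 15550 UMIs (2.89%) in 90 cells, with 1.87%, 3.04% and 6.24% per cell on plate 2 and 1.3%, 2.44% and 5.56% on plate 4. Rows without a symbol summed to 8.69% of all UMIs, and in single cells to between 3.79% and 18.4%. The other rows among the 25 most abundant included malat1, a long non-coding RNA of the nucleus, with 2159 UMIs, and anxa5a, an annexin that binds membranes in the presence of calcium, with 1860.

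**Figure D2:**
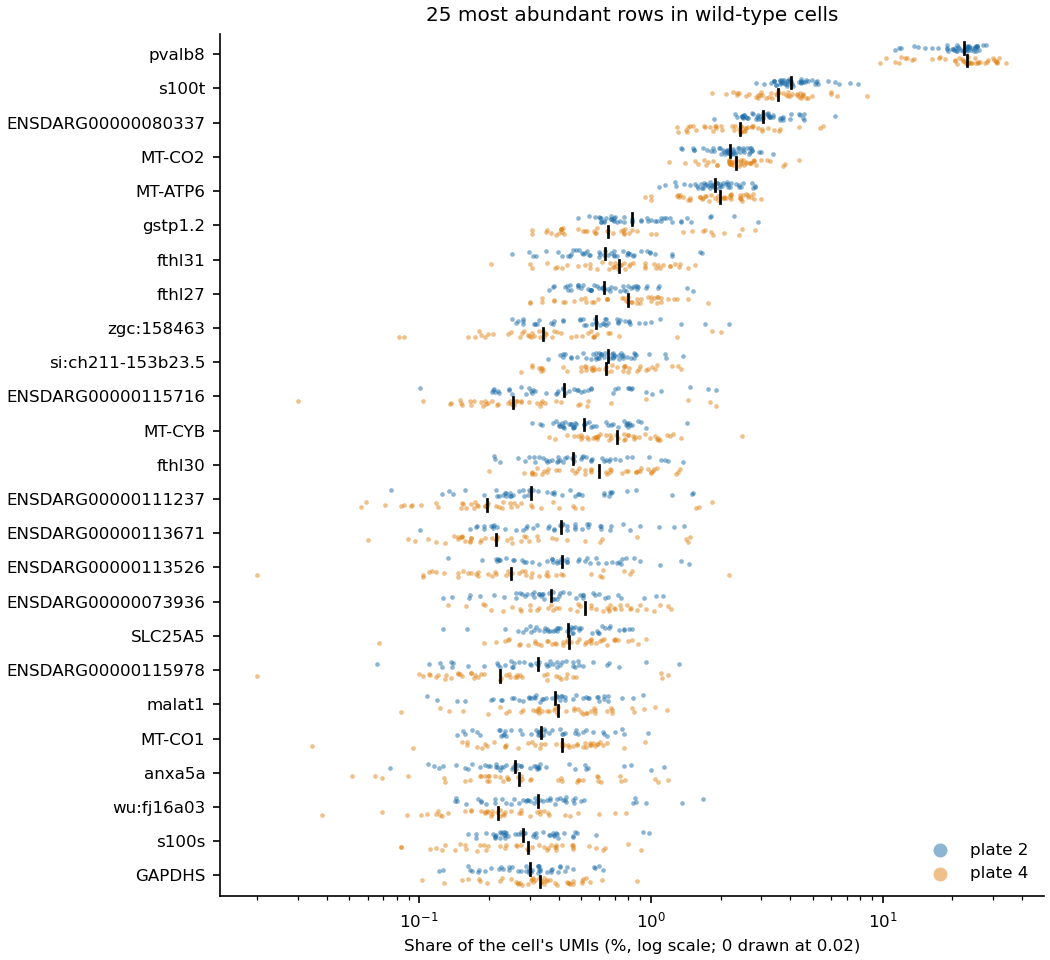
Share of each cell's UMIs (%, log axis) for the 25 most abundant rows, with 1 point per wild-type cell and a bar at the median, plate 2 above plate 4 in each row. Pvalb8 lies above every other row in all 90 cells, and zgc:158463, ENSDARG00000115716, ENSDARG00000111237 and ENSDARG00000115978 have a few cells far above their median.

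The genes that make hair cells sensory were far less abundant than their calcium buffers. Of 51 symbols of the transduction channel and hair bundle list 43 matched, to 43 rows. These summed to 2053 UMIs, 0.382% of the total, although all 43 were seen. Outside the 54 spike-in rows, 10435 rows had a UMI in a table of 12409 rows, so being seen is common. CAPG (ENSDARG00000099672), which caps actin filaments, led with 411 UMIs in 80 cells, and MYO6 (ENSDARG00000042141) had 210 in 67. TMC2 (ENSDARG00000030311), a pore-forming subunit of the transduction channel, had 172 UMIs in 60 cells, 43 on plate 2 and 17 on plate 4, and its second row, TMC2 (ENSDARG00000033104), had 43 UMIs in 27 cells. Lhfpl5b, an accessory protein of that channel, had 104 UMIs in 45 cells. At 0 to 9 UMIs per cell, a cell without a TMC2 UMI cannot be told from one that was sampled too shallowly: the median depth was 5745.5 UMIs in cells with a UMI of TMC2 (ENSDARG00000030311) and 3465 in those without.

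Of 42 ribbon synapse symbols 28 matched, to 27 rows. These summed to 2388 UMIs (0.444%), and 2 of the 27 rows gave most of them. OTOF (ENSDARG00000020581) had 944 UMIs, with 1, 10 and 47 per cell on plate 2 and 1, 5 and 23 on plate 4. Cabp2b, a calcium-binding protein that modulates the synaptic calcium channel in mammals, had 847 UMIs in 89 cells. The second otoferlin row, OTOF (ENSDARG00000030832), had 96 UMIs in 33 cells, and SLC17A8, the vesicular glutamate transporter of hair cells, 46 UMIs in 23. Of 24 ion channel and pump symbols 16 matched. Among their rows, ATP1B1 (ENSDARG00000013144), ATP1B2 (ENSDARG00000034424) and atp1a3b, subunits of the sodium-potassium pump, had 566, 261 and 210 UMIs. CHRNA9, a subunit of the acetylcholine receptor that receives efferent input, had 172 UMIs in 63 cells.

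Of 33 symbols of the transcription factor list 24 matched, to 23 rows. All 23 were seen, as most rows of the table were, for a sum of 1742 UMIs (0.324%). Gfi1aa led, at 448 CPM (394 to 509), ahead of POU4F1 with 178 UMIs, EYA1 with 170 and barhl1a with 157. Gfi1aa per cell had 0, 2 and 12 UMIs on plate 2 and 0, 1 and 14 on plate 4. EMX2, the gene of the mutant label, was seen with 105 UMIs over 39 mutant-labelled cells, against 45 UMIs over 36 wild-type cells, at most 3 in a wild-type cell; the label gives no allele. Of 47 cilium symbols 40 matched, to 40 rows. These summed to 2081 UMIs (0.387%), with all 40 seen. They were led by TEKT3 with 299 UMIs and ENKUR with 262, which encode proteins of ciliary microtubules.

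Matched genes of cell division and of the Notch pathway were scarce. Of 22 cell cycle symbols only 9 matched, to 10 rows, so their sum does not show that such genes were absent. Of the 10 rows, hmgb2b, a chromatin protein, gave 118 of 138 UMIs. Mki67, a marker of dividing cells, had 2 UMIs in all 90 cells. The Notch pathway list summed to 217 UMIs (0.0404%) over 23 rows, with a range of 0 to 0.357% per cell. Its matched rows were led by jag2b, a Notch ligand, with 62 UMIs in 29 cells. Of its 30 symbols 22 matched, and the Notch ligand gene dld was matched to no row under that symbol. Matched heat shock and immediate-early genes were not scarce, at 1.06% of UMIs and between 0.439% and 2.37% per cell. HSPA8 (ENSDARG00000068992), a chaperone, had 1433 UMIs, JUN, an early-response transcription factor, 987 and the heat shock gene hsp70.1 731. FOS, an early-response transcription factor seen in all 90 cells, matched no symbol of that list, nor did HSPA2 and HSP90AA1. The 1.06% leaves these rows out. Cells were dissociated with enzymes and sorted before lysis; any part of those steps in these levels was not tested.

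Few rows were seen in nearly every cell. With 1 UMI as the limit, 42 rows were seen in all 90 cells and 83 in at least 86 of them (95%), which is 0.795% of the 10435 rows. These 83 rows held 53.2% of all UMIs. By contrast 2255 rows were seen in 1 cell, and 6783 in fewer than 10% of cells. Detection followed depth: 137 rows were seen in at least 95% of cells on plate 2 and 80 on plate 4, and 46 over both plates after thinning to 2000 UMIs. Of the 83 rows, 73 also reached 95% of the 92 mutant-labelled cells, and the lowest was seen in 83 of them.

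A row with more UMIs is seen in more cells, so the 42 rows seen in every cell came mostly from the abundant rows. They are 42 of the 10435 rows with a UMI and held 46.1% of all UMIs. They included 4 of 11 hair cell marker rows (pvalb8, s100t, s100s and OTOF (ENSDARG00000020581)), 5 of 17 calcium rows, 4 of 12 mitochondrial rows, 5 of 18 iron and antioxidant rows and 1 of 80 ribosomal protein rows, RPS2. FOS and JUN, both early-response transcription factors, were among them with 2, 13 and 72 and with 1, 8 and 48 UMIs per cell over both plates. H1m, a linker histone, had 1523 UMIs and gpx2, a glutathione peroxidase, 1310. Pvalb8, s100t and s100s count in both the marker and the calcium lists. At the 95% limit the calcium rows numbered 8 and the ribosomal protein rows 7. No row of the transduction, transcription factor, cilium, ion channel, actin and tubulin, Notch or cell cycle lists was among the 83. These lists hold 43, 23, 40, 16, 33, 23 and 10 rows in turn. The 83 are 0.795% of the 10435 rows with a UMI, so a count of none is near that share. Of the epidermis list, krt5 was.

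The rows that met the 95% limit with the fewest UMIs show what that limit asks for. H3f3d, a histone variant, had 438 UMIs in 86 cells, a median of 3 per cell; TFG, a protein of the secretory pathway, had 490 in 87, and atp5mc3b, a subunit of ATP synthase, 515 in 88. CALML4, a calmodulin-like protein, SDHB, a subunit of succinate dehydrogenase, and ppiab, a cyclophilin, had 538, 559 and 582 UMIs. After thinning, between 65 and 79 of 88 cells kept a UMI of each of these 6 rows. A few rows with more UMIs fell short: si:dkey-229d11.5 had 1112 UMIs and was seen in 84 cells, with 0, 4 and 242 UMIs per cell.

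**Figure D3:**
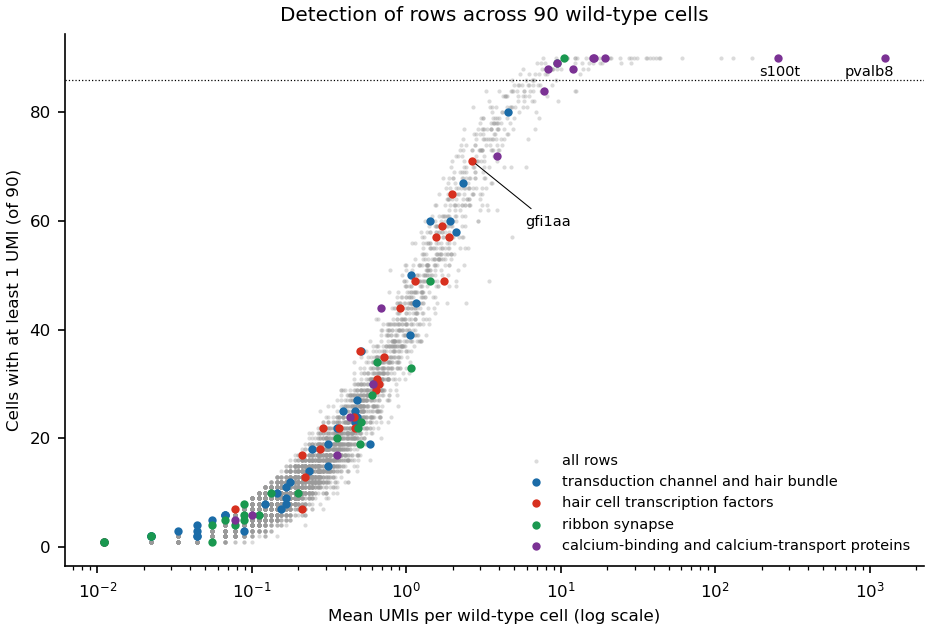
Number of wild-type cells (of 90) with at least 1 UMI against the mean UMIs per cell (log axis) for every row seen, with 4 gene lists coloured and a dotted line at 86 cells. Calcium rows such as pvalb8 and s100t sit at 90 cells on the right, while the hair bundle and transcription factor rows, gfi1aa among them with 71 cells, lie below the line.

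Variation between cells was measured within each plate as the squared coefficient of variation (CV) left after the Poisson counting variance at each cell's depth is taken off. The cell with the most UMIs of a row was left out of that row, and rows needed 50 UMIs on each plate. Cells weigh in this value by the square of their depth, so 1 deep cell that is not left out can still move it. For the 418 rows measured the median was 0.264 on plate 2 and 0.347 on plate 4. Spike-in rows, which are not made by the cells, had medians of 0.0824 (17 rows) and 0.135 (11 rows). On plate 2 the highest spike-in row had 0.786, and 2 of 17 (11.8%) reached 0.5, against 17.7% of the 418 rows. On plate 4 the highest had 0.211 and none reached 0.5, against 33.7% of the 418 rows. On both plates 58 rows reached 0.5, which is 13.9% of those measured; the nearest rows on either side had smaller values of 0.503 and 0.495. Without the deepest cell 45 of 417 rows reached 0.5.

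By this measure pvalb8, s100t and MT-CO2 varied less than most rows. Pvalb8 had a squared CV beyond Poisson of 0.0436 on plate 2 and 0.0989 on plate 4. S100t had 0.0737 and 0.162, and MT-CO2 0.0261 and 0.0627. The lower quartiles of the 418 rows were 0.146 and 0.188. Spike-in rows are no matched reference, as they were scaled by spike-in totals with medians of 285 and 85.5 UMIs per cell. Pvalb8 is part of the total that scales it, and its share still ran between 9.70% and 34.2% over cells. None of the 6 hair cell marker rows and none of the 10 calcium rows measured reached 0.5 on both plates, where 13.9% of all 418 rows did. Pvalb8, s100t and s100s are in both lists, and lists this short say little against that share. The less abundant gfi1aa had 0.445 and 0.337, where the medians of all measured rows were 0.264 and 0.347. Other rows with low values on both plates were tpm1, a tropomyosin, and zp3e, a relative of egg coat proteins, with 206 and 316 UMIs.

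The row with the highest value on both plates, taken as the smaller of the 2, was ENSDARG00000113120, at 2.01 on plate 2 and 2.2 on plate 4. Its 145 UMIs lay in 48 cells, with 0, 1 and 17 per cell on plate 2 and 0, 0 and 14 on plate 4, and 6 cells held 50% of them. Sowahab had 2.57 and 1.38. Its 220 UMIs were spread over 0, 1 and 30 per cell on plate 2 and 0, 0 and 56 on plate 4, so that 3 cells held 50%. Krt18b, a keratin of simple epithelia, had 1.2 and 3.10; 4 of the 54 cells in which it was seen held 50% of its 184 UMIs. For comparison, 26 cells held 50% of pvalb8 and 25 cells 50% of all UMIs. The median cell thus had 0 or 1 UMI of these rows, and a few cells on both plates had more than 10.

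Among the 25 rows with the highest values, 7 had no symbol and the rest spread over several functions. COPZ1, a coat subunit of Golgi vesicles, had 1.60 and 1.11, with 116 UMIs and at most 12 per cell. Selenow2b, a selenoprotein, had 1.1 and 1.5. Hmgb1a, a chromatin protein, TCP1, a chaperonin subunit, PPIB, a cyclophilin of the endoplasmic reticulum, and NSA2, which acts in ribosome assembly, had between 155 and 225 UMIs and smaller values of 0.912, 0.882, 0.880 and 0.738. Si:dkey-229d11.5 was among the few that were abundant, at 0.701 and 2.22; its share was 0.0112%, 0.106% and 0.567% per cell on plate 2 and 0%, 0.0716% and 3.58% on plate 4, and 5 cells held 50% of it. Over the 25 rows, 3 to 11 cells held 50%, with a median of 7.

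Of all measured rows 13.9% reached 0.5 on both plates. Of 49 ribosomal protein rows 9 did (18.4%), near that share, led by RPS13 at 0.917 and 1.15. Of 46 nuclear oxidative phosphorylation rows 2 did (4.35%). Of the 29 measured rows without a symbol 12 did (41.4%). Of 9 actin and tubulin rows 3 did, all of them alpha-tubulins: tuba1c, tuba1b and TUBA1A. A further alpha-tubulin row, tuba8l4, matched no symbol of that list and did not reach 0.5, at 0.294 and 0.133. Tuba1c had 0, 2 and 43 UMIs per cell on plate 2 and 0, 1 and 13 on plate 4. Alpha-tubulin copies are near-identical, and how reads were split among them is uncertain.

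**Figure D4:**
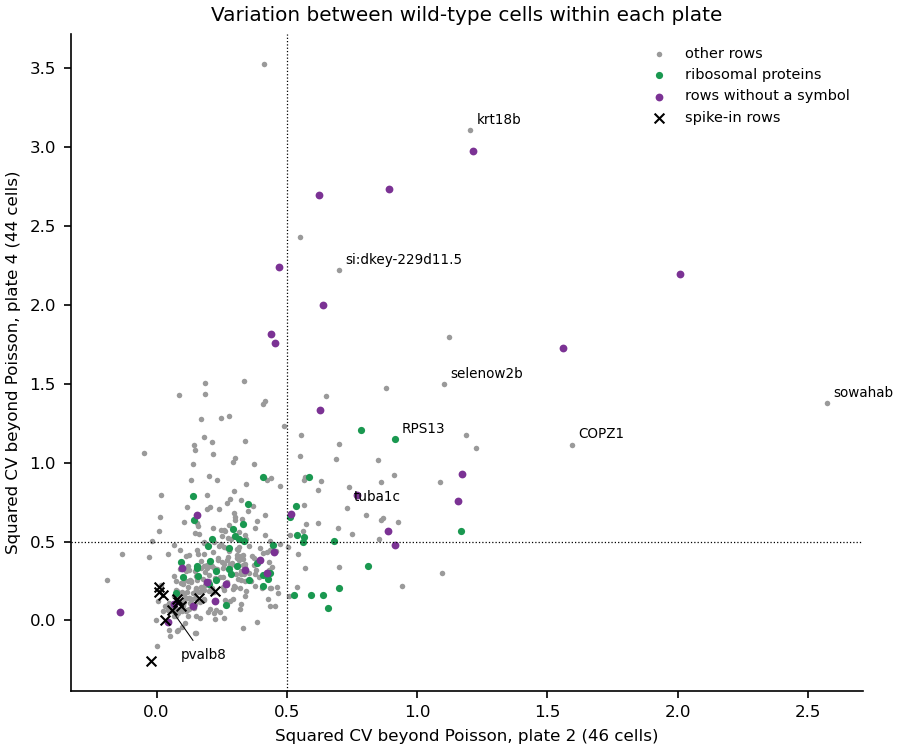
Squared CV between wild-type cells beyond Poisson counting, plate 2 (46 cells) on the x axis and plate 4 (44 cells) on the y axis, for 418 rows and the spike-in rows measured on both plates; dotted lines mark 0.5. Pvalb8 lies among the spike-in rows near 0, and 58 rows lie above both lines, 12 of them without a symbol. Spike-in rows measured on plate 2 alone, 2 of which reached 0.5, are not drawn.

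Some of the varying rows varied together over cells. Over the 1653 pairs of the 58 rows, Spearman's rho of thinned counts was computed within each plate (45 and 43 cells, which share their plate and fixed depth) and the smaller value taken. Its median was -0.049, and 4 pairs passed 0.5. The pair of zgc:158463 and ENSDARG00000115978 had 0.655 on plate 2 and 0.668 on plate 4. 5_8S_rRNA (ENSDARG00000081218), a ribosomal RNA row, and ENSDARG00000115021 had 0.590 and 0.713. ENSDARG00000111237 and ENSDARG00000115716 had 0.714 and 0.553, and ENSDARG00000115716 and ENSDARG00000115819 had 0.538 and 0.530. TUBA1A and tuba1c, the paralogs named above, had 0.589 and 0.474. Sowahab had no partner above 0.243 among the 58.

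Of the 25 most abundant rows, 4 were among the 58, which is near the 13.9% of all 418 measured rows. Their shares were summed after their values had been seen: zgc:158463, ENSDARG00000115716, ENSDARG00000111237 and ENSDARG00000115978. The 4 were picked for high variation, so a few cells with high shares follow from that choice. Their summed share was 0.552%, 1.68% and 6.92% of a cell's UMIs on plate 2 and 0.475%, 0.960% and 6.77% on plate 4. It passed 3% in 5 and in 3 cells. The deepest cell was 1 of these and held between 14.3% and 18% of the UMIs of each of the 4 rows. The 3 cells of plate 4 over 3% had 9450, 7437 and 10684 UMIs and were the 3 deepest of that plate. The 5 of plate 2 had between 3288 and 33325 UMIs. Within plates the summed share had a Spearman's rho with cell depth of 0.198 on plate 2 and 0.178 on plate 4, with the spike-in share of 0.248 and 0.0977, and with pvalb8 of -0.608 and -0.362. These weak values with depth describe all cells, not the few highest, and the part of depth was not tested. With the 5_8S_rRNA share it was 0.600 and 0.149, with the ribosomal protein share 0.458 and 0.217, and with the mitochondrial share -0.305 and -0.267. Shares of the same total are not independent.

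The large classes also moved against each other. The pvalb8 share had a Spearman's rho of -0.686 with the ribosomal protein share over the 46 cells of plate 2 and of -0.713 over the 44 of plate 4. It was positive with the mitochondrial share, at 0.509 and 0.286. The s100t share, by contrast, had 0.407 and 0.497 with the ribosomal share. All these shares are parts of the same total in each cell and so are not independent. Cell depth had a rho of 0.173 and 0.00416 with the ribosomal share, of -0.245 and -0.0156 with the pvalb8 share, and of -0.568 and -0.474 with the mitochondrial share. The part of depth in these relations was not tested.

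**Figure D5:**
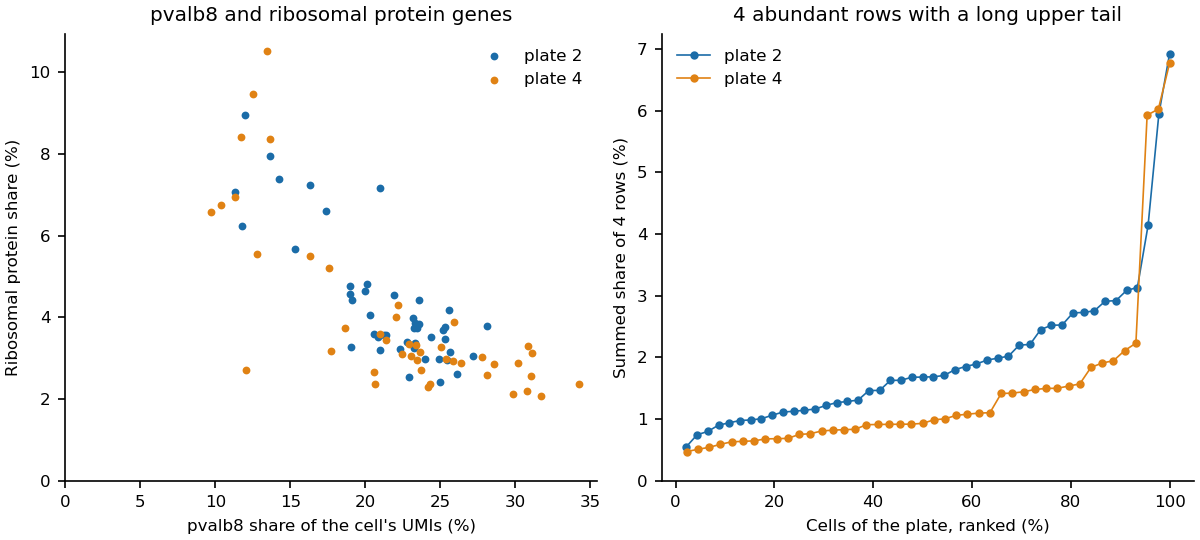
Left, ribosomal protein share against pvalb8 share (% of a cell's UMIs) in each wild-type cell; right, the summed share of zgc:158463, ENSDARG00000115716, ENSDARG00000111237 and ENSDARG00000115978 in the cells of each plate, ranked from lowest to highest. The highest ribosomal shares lie at low pvalb8 shares (Spearman's rho of -0.686 on plate 2 and -0.713 on plate 4), and 5 cells of plate 2 and 3 of plate 4 exceed 3% on the right.

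The plates, which the labels do not tie to separate animals or days, differed in 98 of the 744 rows with 50 UMIs on the higher plate (13.2% at least 2-fold apart in CPM of summed counts). On plate 2, 82 rows (11%) were higher and 16 (2.15%) were lower. That split rests on the minimum: plate 2 held 360792 UMIs against 176720 on plate 4, so 50 UMIs admit rows at a lower CPM on plate 2. With the same minimum of 283 CPM on either plate, 26 of 481 rows differed, 10 higher and 16 lower on plate 2. None of the 25 most abundant rows and none of the 42 rows seen in every cell was among the 98. The ratios of plate 2 over plate 4 among the 25 ran from 0.71 for MT-CYB, an apocytochrome, to 1.48 for wu:fj16a03, where the median of all rows tested was 1.15. Of the 25 most varying rows 2 were called, both lower on plate 2: krt18b at 0.411 (0.304 to 0.555) and NMRK2, a nicotinamide riboside kinase, at 0.479 (0.351 to 0.652). Krt18b had a ratio of 0.613 without its highest cell, and NMRK2 of 0.509 without the deepest cell, so neither call holds without the cell named. With TMM factors NMRK2 had a ratio of 0.525 and was not called.

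Higher on plate 2, by the interval bound nearest 1, were 8 named rows, chosen at the minimum of 50 UMIs on the higher plate. At least HNRNPU (ENSDARG00000015206), krt91 and ankrd45 lay below the common minimum of 283 CPM. HNRNPU, krt91 and ankrd45 are thus not among the 10 that were higher on plate 2 at that minimum. Vipb, which encodes a neuropeptide, had 411 UMIs in 41 cells on plate 2 and 21 in 16 on plate 4, a ratio of 9.59 (6.19 to 15.7), and 8.81 without the deepest cell. It reached 90 UMIs in 1 cell of plate 2, against at most 3 on plate 4. HNRNPU (ENSDARG00000015206), a nuclear RNA-binding protein, had 61 UMIs in 24 cells of plate 2 and 0 on plate 4. With 3 UMIs as the limit of a count of 0 over plate 4, it was 9.96-fold higher on plate 2 or more. That bound leaves out the counting error of the 61. A second row of the symbol, HNRNPU (ENSDARG00000004735), was seen in 37 cells over both plates, and how reads were split between the 2 rows is uncertain. Hmgn1b, a chromatin protein, elavl1a, an RNA-binding protein, and egr4, an early-response transcription factor, had ratios of 4.16, 4.65 and 8.08. Ankrd45 had 7.84 and PC (ENSDARG00000098766) 12.2. The ratio of krt91 was 18.9 (5.05 to 158) and 9.44 without the deepest cell.

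Beside krt18b and NMRK2, the rows named for the opposite direction were TSPAN13, a tetraspanin, ENSDARG00000109848, ppiaa, a cyclophilin, TSTD1, srsf2a, a splicing factor, and hmgn1a. TSPAN13 had 129 UMIs on plate 2 and 178 on plate 4, seen in 41 cells of each, a ratio of 0.355 (0.281 to 0.448). The other 5 had ratios of 0.335 to 0.416. The paralogs hmgn1a and hmgn1b thus went opposite ways, at 0.335 (0.217 to 0.512) and 4.16 (2.61 to 6.99); how reads are split between the 2 rows is uncertain.

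Beside the 92 mutant-labelled cells, few well-counted rows of the wild-type baseline lay 2-fold apart. Of 1286 rows with 50 UMIs in the higher genotype, 47 (3.65%) differed at least 2-fold, 21 of them higher (1.63%) and 26 of them lower (2.02%) under the mutant label; with edgeR's TMM factors these were 28 and 15. Of the 25 most abundant wild-type rows none was called, and 23 (92% of each list) were also among the 25 most abundant in mutant-labelled cells. Pvalb8 made up 23% of the UMIs under the mutant label, against 20.9% in wild type, a ratio of 1.1. Of the 83 rows seen in nearly every wild-type cell, hsp70.1 was the 1 called, with 364 UMIs over the mutant-labelled cells against 731 over the wild-type cells, a ratio of 0.491. With TMM factors that ratio was 0.516 and no longer called. The median depth was 5873 UMIs over the mutant-labelled cells, against 4459 UMIs over the wild-type cells.

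Within plates the same 418 rows had a median squared CV beyond Poisson of 0.218 and 0.289 in mutant-labelled cells, against 0.264 and 0.347 in wild type, for plate 2 and plate 4 in turn. In mutant-labelled cells 33 rows (7.89%) reached 0.5 on both plates, and 13 of them were among the wild-type 58, which is 39.4% of the mutant-labelled and 22.4% of the wild-type rows. Of the 25 most varying wild-type rows 8 reached it there, among them sowahab at 1.27 and 3.37 and krt18b at 1.98 and 3.29. The 25 were picked for high wild-type values, so lower values elsewhere follow from that choice. With 1 sample per genotype, none of these differences has a replicate check.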

How the data were processed

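The labels describe mcSCRB-seq, a plate-based single-cell assay in which cell barcode and UMI are added at the 3′ end. The authors deposited raw UMI counts, whole numbers without normalization, in 12409 rows and 184 columns, all matched to samples by barcode. The submitters' processing notes name STAR 2.6.0a and the build GRCz11. The sources used here do not give the counter or the annotation.

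Totals and comparisons leave out the 54 spike-in rows, which hold 5.15% of UMIs. A table of gene names gave symbols, many in the human style, for 11707 of 12354 identifiers. An identifier stands beside a symbol that several rows share, and rows without a symbol are given no name. No genome or sequence was used here. The members and the 25 gene lists were chosen with earlier results of these data known. Of 667 list symbols, 490 matched, regardless of case or otherwise without a final a or b; the zebrafish symbol dld was not matched to DLD, the human symbol of an unrelated gene.

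Genes were named if they were given as markers of the cell type, were the reporter, or belonged to the 25 most abundant or 25 most varying rows. The rule also took up to 20 rows seen in all cells, the 10 rarest rows at the 95% limit, up to 4 leading members of each list and up to 8 rows per plate direction. Rows outside the rule were named after their values were seen: zp3e and list members of lower rank, such as tpm1.

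Each cell is 1 well and cells are not replicates, so counts were summed per plate and genotype and no test was run. Doublets were not called. CPM intervals are exact Poisson, shares exact binomial (Clopper-Pearson) and ratios exact conditional, all at 95%. The ratio and variation steps were tested on simulated data; leaving out the highest cell lowers the estimate of variation. Differences were called at a ratio of 2 or more or 0.5 or less. Alternatives covered cell and row minimums, thinning, each plate alone, the deepest cell, the total used, and edgeR and DESeq2 scaling factors; 2 were added after the data were seen. Versions were edgeR 4.0.16 and DESeq2 1.42.0 under R 4.3.3, and scipy 1.17.1, numpy 2.4.6, matplotlib 3.10.9 and pandas 2.3.3 under Python 3.11.15.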

Additional observations from a re-analysis of the deposited data

How the results depend on the processing

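The share of pvalb8, 20.9% of UMIs, was 21.2% without the deepest cell, 20.5% on plate 2 alone, 21.8% on plate 4 alone, 21.8% as the mean of per-cell shares and 23.2% of a total without mitochondrial and ribosomal protein genes. The number of rows that hold 50% of UMIs stayed between 53 and 58 under all 8 alternatives tried. The number of rows seen in at least 95% of cells, 83, depended on depth: it was 137 on plate 2 alone, 19, 46 and 139 with cells thinned to 1000, 2000 and 5000 UMIs (90, 88 and 41 cells), 134 at a limit of 90% and 42 at all cells. The number of rows with a squared CV beyond Poisson of 0.5 on both plates, 58, was 93 with the highest cell of a row kept, 160 of 802 rows at a minimum of 25 UMIs, 16 of 195 at 100 UMIs, 45 of 417 without the deepest cell, 42 of 350 with cells of at least 3000 UMIs, and 9 of 164 in cells thinned to 2000 UMIs. Rows 2-fold apart between plates, 98 of 744, were 624 of 1915 at a minimum of 20 UMIs and 7241 of 10435 with no minimum. Without the deepest cell they were 73 of 695. With the same CPM minimum on both plates, also chosen after seeing the data, they were 26 of 481. Rows 2-fold apart between genotypes, 47 of 1286, were 39 of 941 on plate 2 alone and 21 of 470 on plate 4 alone. They were 449 of 3100 at 20 UMIs, 6334 of 12354 with no minimum and 44 of 1248 without the deepest cell. TMM factors raised every plate 2 to plate 4 ratio by 0.13 on the log2 scale and DESeq2 size factors by 0.03. An alternative chosen after seeing the data left out cells whose spike-in share passed 20%. Pvalb8 then held 20.9%, 56 rows held 50% of UMIs and 83 rows were seen in 95% of cells. In that setting 55 of 415 rows passed the CV limit, 91 of 715 differed between plates and 50 of 1256 between genotypes. The shares of mitochondrial, ribosomal protein and nuclear oxidative phosphorylation genes moved by more than counting error in 12 of 24 alternatives. The causes of these shifts were not tested, beyond the fewer UMIs or cells that thinning and plate choice leave. No paired analysis was possible because each genotype was 1 sample and the labels give no replicate number that both genotypes share. The depth of the shallow cells limits rows with few UMIs, so a gene not seen in a cell may still be expressed there.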
